A study of Mus musculus with 12 samples.

Results

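The 10 genes described here encode the core of the NF-κB system. They are the subunits (Nfkb1, Nfkb2, Rel, Rela and Relb), the inhibitors (Nfkbia, Nfkbib and Nfkbie) and parts of the kinase that marks the inhibitors for destruction (Ikbkb and Ikbkg). They were taken by gene symbol, and all 10 were among the 14096 genes listed for every mouse. The set was chosen with earlier results of the same values known, so counts and differences of the 10 genes are given as a description, without a test of their own.

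Glomerular mRNA had been sequenced in 12 male C57BL/6J eNOS-/- mice, which all lack endothelial nitric oxide synthase (Nos3), in 4 groups of 3. At the age of 8 weeks, diabetic mice had been given streptozotocin (STZ), a toxin of pancreatic beta cells, at 50 mg/kg daily over 5 days, while the nondiabetic ones had received citrate buffer. From 10 weeks after induction, each mouse was gavaged daily for 8 weeks with arctigenin (ATG), a plant lignan, at 40 mg/kg or with the 5% DMSO vehicle, and was killed 18 weeks after induction. The groups are nondiabetic vehicle, nondiabetic ATG, diabetic vehicle and diabetic ATG, and mice 1 to 3 of a group are numbered in order of deposit, which is only a name. Both diabetes and ATG were systemic, so effects on cells outside the glomerulus are part of every comparison.

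The libraries held 23.6 to 29.8 M (mega) reads on the listed genes. The deposited values were taken as log2 of reads, not all of them whole, multiplied by one factor per library. A log2 difference of 1 is a doubling. The first part of the mouse labels is specific to each group, so a preparation batch and the group cannot be told apart. The labels tell the mice apart but give no further replication, and p-values below measure the spread between these mice. In all groups the podocyte markers were abundant, with library means of 12.67 to 14.28 over 20 genes, but tubule markers ranged from 10.64 to 13.72 over 39 genes, so the libraries also hold RNA of tubule cells. In bulk RNA, fewer cells of a type and less RNA per cell cannot be told apart. Nos3 itself was read in every library, with 846 to 2703 reads, and a count over the whole gene does not check the disrupted allele.

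NF-κB is a family of dimeric transcription factors that switch on genes of inflammation, immunity and cell survival. At rest, dimers such as p50 (made from Nfkb1) with p65 (Rela) are held in the cytoplasm by IκB proteins. In the canonical pathway, a kinase with IKKβ (Ikbkb) as its main catalytic subunit and NEMO (Ikbkg) as its scaffold phosphorylates IκB, which is then degraded. In the noncanonical pathway, the NF-κB-inducing kinase (Map3k14) leads to processing of p100 (Nfkb2) to p52, which acts with RelB (Relb). Several of these genes, among them Nfkbia, Nfkb2, Relb and Rel, are known targets of NF-κB, so that the system feeds back on itself. In the glomerulus, the system is known in podocytes, mesangial and endothelial cells and in infiltrating leukocytes. Activity of these proteins is set largely by phosphorylation, processing and location, none of which mRNA shows.

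Because the family acts on its own genes, the stretches before the gene starts were searched for the kappa B consensus, the DNA motif of 10 letters that NF-κB dimers bind. The windows come from RefSeq on GRCm38.p6 (mm10) and run from 250 bases before to 50 bases after a transcript start. A window was found for 7 of the 10 genes, and none was given for Nfkb1, Relb and Ikbkb. The motif, on either strand, was present in 4 of these 7 genes (Rel, Nfkbia, Nfkbie and Nfkb2) and in 9.55% of the 27025 genes with a window. Among the 11151 listed genes with a window, the share was 12.4%. No match was found in the windows of Rela, Nfkbib and Ikbkg. The sequences below are shown because they hold the matches. They are given 5′ to 3′ on the strand of the gene, with the 240 bases farthest upstream for Rel, Nfkbia and Nfkbie and short stretches for Nfkb2, and capitals mark the matches, with overlapping ones joined.
Rel, chr11:23770980-23771219, minus strand: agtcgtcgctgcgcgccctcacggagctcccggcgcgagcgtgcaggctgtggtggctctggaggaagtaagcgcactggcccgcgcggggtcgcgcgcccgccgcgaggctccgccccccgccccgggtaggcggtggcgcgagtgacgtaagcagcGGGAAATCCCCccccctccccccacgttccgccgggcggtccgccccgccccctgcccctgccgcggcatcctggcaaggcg
Nfkbia, chr12:55492658-55492897, minus strand: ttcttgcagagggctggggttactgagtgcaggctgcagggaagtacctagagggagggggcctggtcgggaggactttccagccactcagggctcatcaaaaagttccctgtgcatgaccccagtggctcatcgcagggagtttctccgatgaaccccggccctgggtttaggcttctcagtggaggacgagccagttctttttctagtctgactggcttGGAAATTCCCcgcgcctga
Nfkbie, chr17:45555450-45555689, plus strand: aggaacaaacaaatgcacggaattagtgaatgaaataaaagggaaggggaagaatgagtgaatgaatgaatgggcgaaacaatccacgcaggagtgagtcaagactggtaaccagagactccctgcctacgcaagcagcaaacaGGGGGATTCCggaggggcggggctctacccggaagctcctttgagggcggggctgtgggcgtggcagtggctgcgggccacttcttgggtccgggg
Nfkb2, chr19:46304690-46304716, plus strand: atcgtcacGGGAATTCCCCccctcggg
Nfkb2, chr19:46304718-46304743, plus strand: ggccgaaaGGGGCTTTCCcggctgga
Nfkb2, chr19:46305451-46305476, plus strand: cgacggcaGGAATGTCCCcacaaaag
Nfkb2, chr19:46305697-46305722, plus strand: gtattttcGGGACTTTCCtaagcagc
The stretches of Nfkb2 come from windows of different transcript starts. The letters describe these windows, and binding was not measured.

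The level of the 10 genes was compared per length, as recovered reads per kb of transcript, without scaling between libraries. Nfkbia, which encodes IκBα, was the most abundant with a mean of 2489 over the 12 mice, followed by Rela at 907 and Nfkb1 at 573. Next came Ikbkb at 529, Nfkbib at 484, Nfkb2 at 352, Ikbkg at 254 and Relb at 233. Nfkbie at 81.5 and Rel at 26.2 were lowest. The order at both ends was the same in all 12 mice, with Nfkbia before Rela and Nfkbie before Rel. In the middle, the order of Nfkb1, Ikbkb and Nfkbib was not the same in all mice, nor was that of Ikbkg and Relb. Nfkb2 stood before Relb in all 12 mice, and before Ikbkg in all but mouse 1 of the nondiabetic ATG group. Rel, a subunit best known in lymphoid cells, was carried by only 54 to 101 reads per library, against at least 1455 for Nfkb1 and 1701 for Rela.

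**Figure D1:**
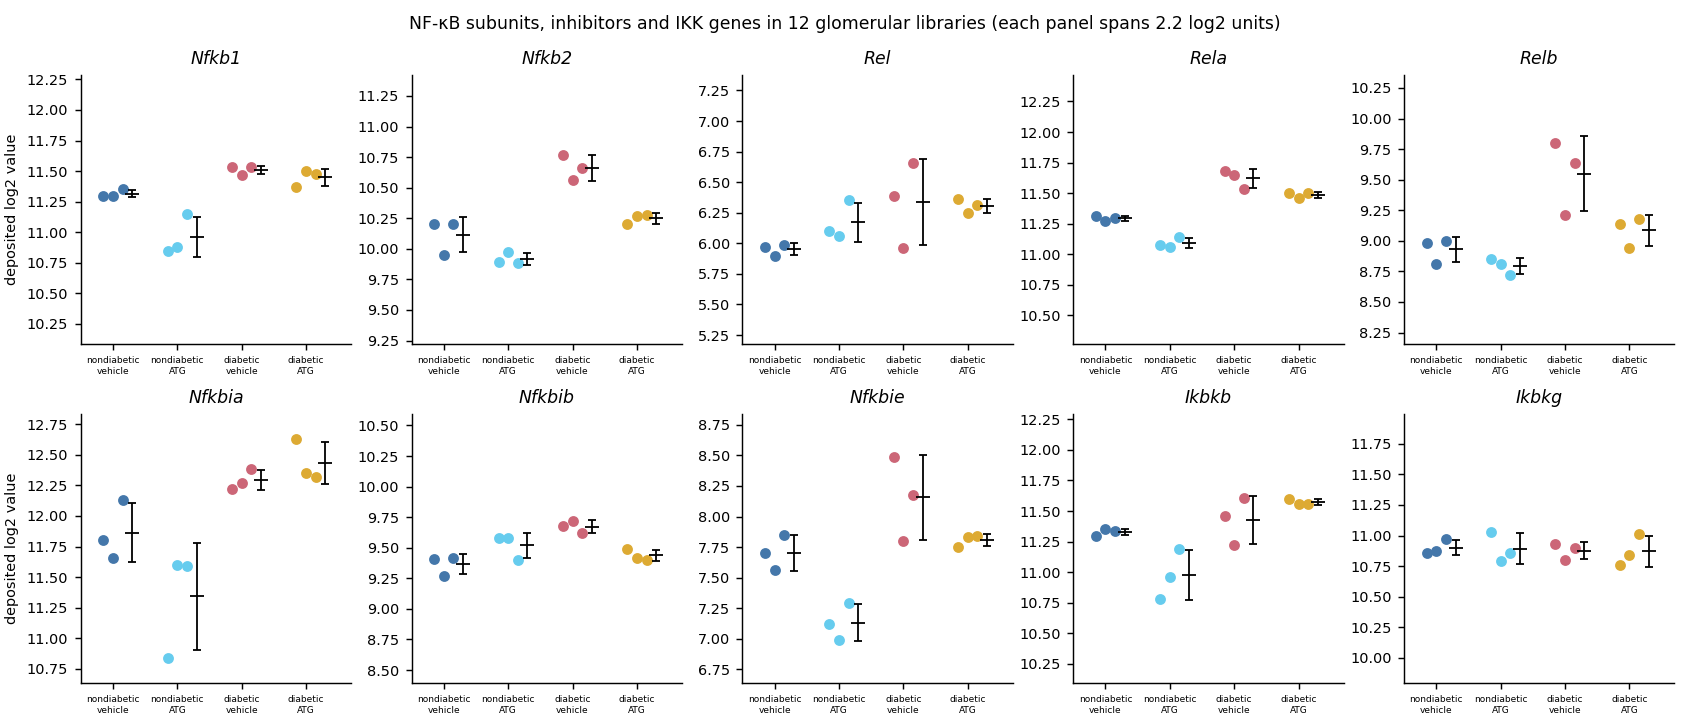
Deposited log2 value (y axis, every panel spanning 2.2 units, not starting at 0) of the 10 genes in the 12 mice, grouped by nondiabetic vehicle, nondiabetic ATG, diabetic vehicle and diabetic ATG on the x axis. Points are mice 1 to 3 from left to right, and the bar beside them is the mean with its SD. Nfkb2 is highest in the 3 diabetic vehicle mice, between 10.56 and 10.77, and Ikbkg is nearly level across all 12.

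Nfkb2, the precursor of p52, separated the diabetic vehicle mice from the other 9. Its log2 value was 10.77, 10.56 and 10.66 in diabetic vehicle mice 1 to 3, against 10.20, 9.95 and 10.20 in the nondiabetic vehicle mice. It was 10.20, 10.27 and 10.28 in the diabetic ATG mice and 9.89, 9.97 and 9.88 in the nondiabetic ATG mice. All 3 diabetic vehicle mice lay above every other mouse, and the diabetic ATG mice lay at or just above the top of the nondiabetic vehicle range. How many of all genes set groups apart from all other mice, here and for the genes below, was not counted. The diabetic vehicle mean exceeded the nondiabetic vehicle mean by 0.55 ± 0.08 (SE, n = 3 per group), a 1.46-fold difference. In the diabetic mice, the log2 difference between ATG and vehicle was -0.41 ± 0.08.

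Relb, the partner of p52, had a similar profile with more spread. The diabetic vehicle mice were at 9.80, 9.21 and 9.64 and the nondiabetic vehicle mice at 8.98, 8.81 and 9.0. With ATG, the diabetic mice were at 9.14, 8.94 and 9.18 and the nondiabetic mice at 8.85, 8.81 and 8.72. Again each diabetic vehicle mouse was above all others, although mouse 2 exceeded the highest diabetic ATG mouse only narrowly. The difference for diabetes in vehicle-treated mice was 0.62 ± 0.14, or 1.53-fold, and that for ATG in diabetic mice was -0.46 ± 0.14.

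Rela, which encodes p65, varied little within groups. It was at 11.31, 11.27 and 11.30 in nondiabetic vehicle mice and at 11.68, 11.65 and 11.53 in diabetic vehicle mice. Under ATG the nondiabetic mice were at 11.08, 11.06 and 11.14 and the diabetic mice at 11.50, 11.46 and 11.50. The 4 groups did not overlap for Rela, in the order nondiabetic ATG, nondiabetic vehicle, diabetic ATG and diabetic vehicle. The diabetes difference was 0.33 ± 0.06 (1.25-fold) with vehicle and 0.39 ± 0.06 (1.31-fold) with ATG. The ATG differences were smaller, at -0.14 ± 0.06 in diabetic and -0.20 ± 0.06 in nondiabetic mice.

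Nfkb1, the precursor of p50, stood out in the nondiabetic ATG mice. These were at 10.85, 10.88 and 11.15, below all 9 other mice. The nondiabetic vehicle mice were at 11.30, 11.30 and 11.35, the diabetic vehicle mice at 11.53, 11.47 and 11.53, and the diabetic ATG mice at 11.37, 11.50 and 11.48. The 2 diabetic groups overlapped. The log2 difference for ATG in nondiabetic mice was -0.36 ± 0.08 and that in diabetic mice -0.06 ± 0.08. Diabetes gave 0.19 ± 0.08 with vehicle and 0.49 ± 0.08 with ATG.

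Rel values were 5.97, 5.90 and 5.99 in nondiabetic vehicle mice and 6.39, 5.96 and 6.66 in diabetic vehicle mice. With ATG they were 6.10, 6.06 and 6.35 in nondiabetic and 6.36, 6.25 and 6.31 in diabetic mice. The diabetic vehicle mice overlapped with each other group, and mouse 2 of that group was as low as the vehicle controls. The SE of 0.18 on each difference of Rel was over 2 times that of Nfkb2, Nfkb1 or Rela, and the diabetes difference was 0.38, or 0.22 without diabetic vehicle mouse 3.

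Among the inhibitors, Nfkbia (IκBα) had the widest range. It was at 11.80, 11.66 and 12.13 in nondiabetic vehicle mice and at 10.84, 11.60 and 11.59 in nondiabetic ATG mice. The diabetic vehicle mice were at 12.22, 12.27 and 12.38 and the diabetic ATG mice at 12.63, 12.35 and 12.32. All 6 diabetic mice were above all 6 nondiabetic mice, and the diabetic groups overlapped. The diabetes difference was 0.42 ± 0.19 with vehicle and 1.09 ± 0.19 with ATG, the latter a 2.13-fold difference. ATG gave -0.52 ± 0.19 in nondiabetic mice, where mouse 1 was far below the other two, and 0.14 ± 0.19 in diabetic mice. Without that mouse 1 the difference in nondiabetic mice was -0.27.

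Nfkbib (IκBβ) followed a different order. The nondiabetic vehicle mice were at 9.41, 9.27 and 9.42 and the diabetic vehicle mice at 9.68, 9.72 and 9.62. The diabetic ATG mice, at 9.49, 9.42 and 9.40, overlapped with the nondiabetic vehicle mice. The nondiabetic ATG mice were at 9.58, 9.58 and 9.40, so for this gene, unlike Nfkb1, Rela and Nfkbie, they were not the lowest group. As for Nfkb2 and Relb, each diabetic vehicle mouse was above all others. The difference was 0.31 ± 0.08 for diabetes with vehicle, while ATG gave -0.24 ± 0.08 in diabetic and 0.15 ± 0.08 in nondiabetic mice.

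Nfkbie (IκBε) was at 7.70, 7.56 and 7.85 in nondiabetic vehicle mice and at 7.12, 6.99 and 7.29 in nondiabetic ATG mice. The diabetic vehicle mice were widely spaced at 8.49, 7.80 and 8.18, and the diabetic ATG mice were close together at 7.75, 7.83 and 7.84. The nondiabetic ATG mice lay below the other 9, and the diabetic vehicle group touched both the diabetic ATG and the vehicle controls through its mouse 2. For diabetes, the log2 difference was 0.45 ± 0.16 with vehicle and 0.67 ± 0.16 with ATG. For ATG, it was -0.35 ± 0.16 when diabetic and -0.57 ± 0.16 when nondiabetic mice were compared. Without diabetic vehicle mouse 1, the diabetes difference with vehicle was 0.29 and the ATG difference in diabetic mice -0.18, and without mouse 2 the latter was -0.53.

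The kinase genes were unlike each other. Ikbkb (IKKβ) was at 11.30, 11.35 and 11.34 in nondiabetic vehicle mice, 10.78, 10.96 and 11.19 in nondiabetic ATG mice, 11.46, 11.22 and 11.61 in diabetic vehicle mice and 11.60, 11.56 and 11.56 in diabetic ATG mice. The nondiabetic ATG mice were again the lowest, and the diabetic vehicle mice overlapped with both remaining groups. Its difference was 0.10 ± 0.11 for diabetes with vehicle but 0.60 ± 0.11 with ATG, and -0.35 ± 0.11 for ATG in nondiabetic mice. The first of these was 0.21 without mouse 2 and 0.01 without mouse 3 of the diabetic vehicle group. The log2 difference for ATG in diabetic mice, 0.14, was 0.04 and 0.23 without the same mice. Ikbkg (NEMO) stayed between 10.76 and 11.03 in all 12 mice, a range of 0.26, and none of its differences was larger than its SE of 0.08.

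Some mice were low or high for several of the 10 genes at once. Mouse 2 of the nondiabetic vehicle group was the lowest of its group for 7 of them (all but Nfkb1, Ikbkb and Ikbkg), and its leukocyte marker mean of 8.35 was also the lowest of the group. Mouse 3 of that group was the highest for 7 genes, and mouse 1 of the diabetic vehicle group was the highest of its group for 6. Each had the highest leukocyte marker mean of its group, at 8.87 and 9.24. Mouse 2 of the diabetic vehicle group was the lowest of its group for 7 genes (all but Rela, Nfkbia and Nfkbib). Within that group its tubule marker mean was the highest, at 11.92 against 11.52 and 10.64, and its podocyte mean the lowest, at 13.59 against 13.87 and 14.28. Its leukocyte mean of 9.07 was not the lowest, which was 8.80 in mouse 3. That mouse 3 had the lowest tubule and highest podocyte mean of the group but was the highest for 3 genes and the lowest for 2. Mouse 3 of the nondiabetic ATG group was the highest of its group for Nfkb1, Rel, Rela, Nfkbie and Ikbkb. Its podocyte marker mean was 13.77 against 12.67 and 13.10 in the other two, and its tubule mean of 13.13 was the lowest of the group. Mouse 1 of the nondiabetic ATG group had the highest leukocyte mean of its group, at 8.45. It was the lowest of the group for 3 genes and the highest for 3, so the marker means did not follow the genes in every mouse. The part of cell makeup in these values was not tested.

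All listed genes were then fitted together with limma, and a gene was called at a Benjamini-Hochberg adjusted p under 0.05. For diabetes in vehicle-treated mice, Nfkb2, Rela, Relb and Nfkbib were called, all higher, which is 4 of the 10 genes where 18.9% of all genes were called and 10.2% were called higher. The groups did not overlap, with diabetes higher, for 6 of the 10, against 23.0% of all genes. At an unadjusted p under 0.05 there were 7, with Nfkb1, Nfkbia and Nfkbie added, beside 35.5% of all genes. The median log2 difference of the 10 was 0.35 and that of all genes 0.01. Without nondiabetic vehicle mouse 2 or without diabetic vehicle mouse 1, only Nfkb2 and Rela were called of the 10, while calls over all genes went from 2659 to 801 and 1003. Without diabetic vehicle mouse 2, 6 of the 10 were called, with Rel and Nfkbie added, and 2919 of all genes. Because the set was chosen with these results known, nothing is read from the difference to the background.

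For ATG in diabetic mice, none of the 10 genes was called by limma, as for all genes (0%), and limma-voom on recovered reads also called 0. At an unadjusted p under 0.05 there were 4, which are the same 4 genes as in the diabetes comparison (Nfkb2, Rela, Relb and Nfkbib), beside 4.51% of all genes. These 4 were also the genes whose ATG mice all lay below the vehicle mice, against 6.32% of all genes. Both comparisons use the diabetic vehicle mice, with opposite signs, so the overlap of the gene names is not a separate result. The median log2 difference was -0.10 for the 10 genes and -0.01 for all genes.

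In nondiabetic mice, ATG had a lower value for 8 of the 10 genes, and only Nfkb1 was called, lower, beside 5.22% of all genes called and 4.51% called lower. Over all genes, 636 calls were lower and 100 higher, against 408 and 130 with median-ratio scaling, under which Nfkb1 was again the one called of the 10. At an unadjusted p under 0.05 there were 6 (Nfkb1, Nfkb2, Rela, Nfkbia, Nfkbie and Ikbkb), beside 30.2% of all genes. The ATG mice lay below the vehicle mice without overlap for Nfkb1, Rela, Nfkbia, Nfkbie and Ikbkb, against 20.0% of all genes, and above them for Rel, against 14.4%. The call of Nfkb1 was lost when any of 7 mice was left out in turn (each nondiabetic vehicle mouse, nondiabetic ATG mice 1 and 2, diabetic vehicle mouse 1 and diabetic ATG mouse 3). Without nondiabetic ATG mouse 3, Nfkb1, Rela, Nfkbia, Nfkbie and Ikbkb were all called lower, as were 2467 of all 14096 genes, with 1064 higher. Without diabetic vehicle mouse 2, Nfkb1 and Nfkbie were called, and without mouse 3 of that group, Nfkb1, Rela and Ikbkb. Calls over all genes fell to 60, all lower, without nondiabetic vehicle mouse 3, to 8 without the 2 unnumbered nondiabetic mice and to 0 with only the compared groups in limma, where 3968 had an unadjusted p under 0.05.

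For diabetes in ATG-treated mice, Nfkb1, Nfkb2, Rela, Nfkbia, Nfkbie and Ikbkb were called higher, 6 of the 10, where 46.7% of all genes were called and 25.9% called higher. The groups did not overlap for 7 of the 10, these 6 and Relb, against 30.5% of all genes. The median difference was 0.36 for the 10 and 0.05 for all genes. This comparison shares its nondiabetic ATG mice with the one before it.

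Whether ATG acted differently in diabetic and nondiabetic mice was asked with the interaction of the same fit. None of the 10 genes was called by limma or by limma-voom, where 0.546% of all genes were called. At an unadjusted p under 0.05 there were 4 (Nfkb1, Nfkbia, Nfkbib and Ikbkb), beside 12.9% of all genes. The difference between the ATG effects, diabetic minus nondiabetic, was 0.49 ± 0.15 for Ikbkb, 0.66 ± 0.27 for Nfkbia, 0.30 ± 0.11 for Nfkb1 and -0.39 ± 0.11 for Nfkbib. The value of Nfkbia was 0.41 without nondiabetic ATG mouse 1. Only Nfkbib had the more negative ATG difference in diabetic mice among these. Without nondiabetic ATG mouse 3, Nfkb1, Nfkbib and Ikbkb were called, as were 770 of all genes instead of 77. The count over all genes was 124 without diabetic vehicle mouse 3 and 6 to 35 without any one of the other 10 mice, and 19 without the mean-variance trend.

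**Figure D2:**
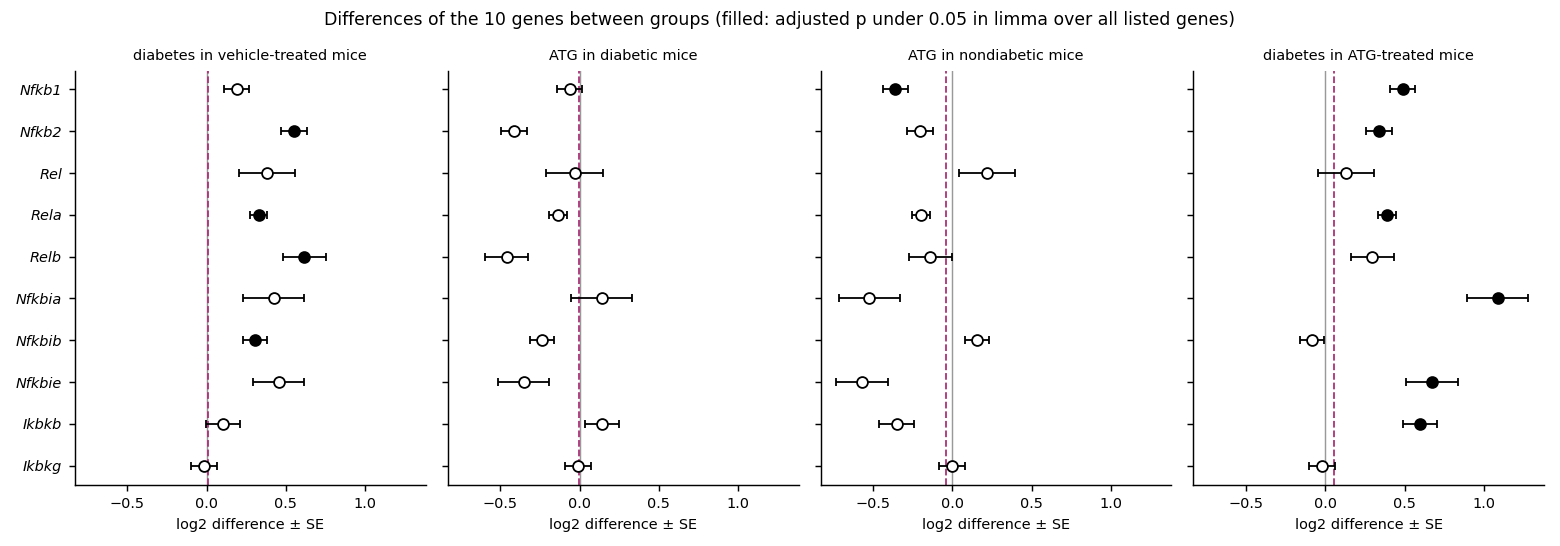
Log2 difference of each of the 10 genes (x axis, with its SE from limma, n = 3 mice per group) in 4 comparisons. Filled points were called at an adjusted p under 0.05 over all 14096 genes, and the dashed line is the median of all listed genes, between -0.04 and 0.05. For diabetes in vehicle-treated mice 9 of the 10 points lie right of 0, and for ATG in nondiabetic mice 8 lie left of it.

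Markers of several cell types moved with the groups, beside these calls. The mean of the 39 tubule markers was 12.72 ± 0.27 (SD, n = 3) in nondiabetic vehicle, 13.42 ± 0.30 in nondiabetic ATG, 11.36 ± 0.66 in diabetic vehicle and 11.67 ± 0.31 in diabetic ATG mice, and 25 of the 39 were called lower with diabetes in vehicle-treated and 37 in ATG-treated mice. Summed, they held 511 to 612, 714 to 960, 139 to 350 and 261 to 305 k (kilo) reads per mouse in these groups. The leukocyte markers, 25 of 30 listed, had means of 8.60 ± 0.26, 8.27 ± 0.17, 9.04 ± 0.23 and 8.67 ± 0.35. They summed to 14.8 to 21.1, 10.4 to 13.5, 21.5 to 27.2 and 14.8 to 22.7 k reads per mouse, with none of the listed at 0, and the T and B cell markers Cd3e, Cd3g, Cd79a, Cd79b and Ms4a1 were not listed. Of the leukocyte markers, 9 were called higher and 1 lower with diabetes in vehicle-treated mice. When ATG and vehicle were compared in diabetic mice, 21 of the 25 had a negative difference, with 0 called by limma and 11 at an unadjusted p under 0.05. Endothelial markers were lower in nondiabetic ATG mice, with a mean of 11.97 ± 0.36 against 12.62 ± 0.07 with vehicle and 10 of 20 called lower. In diabetic mice their mean was 12.99 ± 0.06 with vehicle and 13.01 ± 0.04 with ATG, and for diabetes 9 of 20 were called higher with vehicle and 19 of 20 with ATG. The mesangial and smooth muscle markers were at 10.81 ± 0.22 in nondiabetic ATG against 11.71 ± 0.20 in nondiabetic vehicle mice, with 10 of 16 called lower. They were at 11.41 ± 0.18 in diabetic vehicle and 11.52 ± 0.15 in diabetic ATG mice, and for diabetes in ATG-treated mice 12 of 16 were called higher. For diabetes in vehicle-treated mice 3 were called lower and 1 higher, with a median log2 difference of -0.23. Podocyte markers were at 13.18 ± 0.56 in nondiabetic ATG against 13.74 ± 0.06 in nondiabetic vehicle mice, with 0 of 20 called by limma and 12 at an unadjusted p under 0.05. In diabetic mice their mean was 13.91 ± 0.35 with vehicle and 13.83 ± 0.14 with ATG, and 7 of 20 were called higher for diabetes in ATG-treated mice. The 6 listed erythrocyte markers had means of 6.06, 5.83, 7.36 and 6.58 in the 4 groups. The group means of Nfkb1, Nfkb2, Rela, Relb and Nfkbie had the same order as the leukocyte, podocyte and erythrocyte means. The tubule means had the reverse order. These orders do not tell the cell types apart.

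With the tubule marker mean added to the fit, none of the 10 genes was called in any comparison. Calls over all 14096 genes fell as well, from 2659 to 264 for diabetes with vehicle, from 6585 to 73 for diabetes with ATG and from 736 to 37 for ATG in nondiabetic mice. The log2 difference for diabetes in vehicle-treated mice was then 0.51 ± 0.14 for Nfkb2, 0.38 ± 0.10 for Rela, 0.42 ± 0.13 for Nfkbib, 0.35 ± 0.22 for Relb and -0.15 ± 0.25 for Rel. The values of Nfkb2 and Rela stayed close to those without the covariate, at larger SEs. That of Nfkbib was higher than the 0.31 without it, that of Relb was lower and that of Rel turned in sign. In the same comparison Nfkbie went from 0.45 to 0.14 ± 0.26 and Nfkb1 from 0.19 to 0.06 ± 0.13. For diabetes in ATG-treated mice, Ikbkb went from 0.60 to 0.21 ± 0.18, Nfkbie from 0.67 to 0.28 ± 0.32 and Nfkb1 from 0.49 to 0.32 ± 0.15. Nfkbia went from 1.09 to 0.91 ± 0.40, Nfkb2 from 0.34 to 0.29 ± 0.17 and Rela from 0.39 to 0.46 ± 0.11, so that of Rela was not smaller. For ATG in nondiabetic mice, Nfkb1, the one called without the covariate, went from -0.36 to -0.29 ± 0.09. In the same comparison, Ikbkb went from -0.35 to -0.20 ± 0.11, Nfkbib from 0.15 to 0.09 ± 0.09 and Rel from 0.22 to 0.50 ± 0.18. With the leukocyte marker mean added, Nfkb2 alone was called for diabetes in vehicle-treated mice, at 0.52 ± 0.10, while Rela was at 0.28 ± 0.07, Relb at 0.50 ± 0.16 and Nfkbib at 0.24 ± 0.09, each smaller than without it by less than 1.5 times. For diabetes in ATG-treated mice, the 6 genes called with that covariate were the 6 called without it. The part of tubule or leukocyte RNA in the differences was not tested further.

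**Figure D3:**
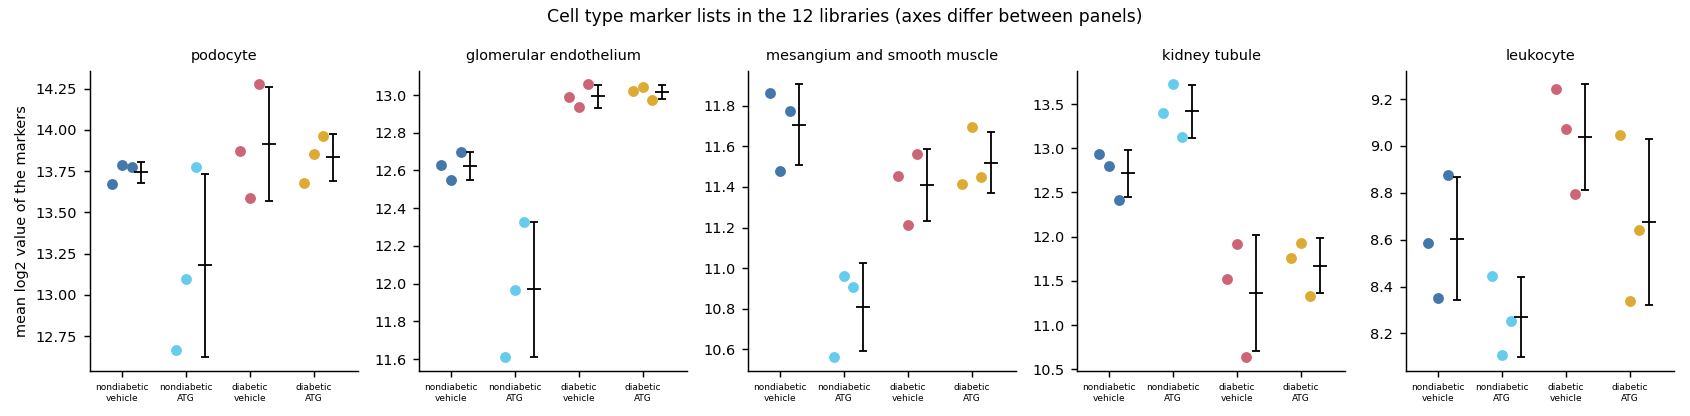
Mean log2 value of 5 cell type marker lists (y axis, a separate range in each panel, not starting at 0) in the 12 mice by group. Points are mice 1 to 3, with the group mean and SD beside them. Tubule markers are highest in the nondiabetic ATG mice, from 13.13 to 13.72, and all 6 diabetic mice are below 12.

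Within a library, the ratios of the 10 genes do not depend on the scaling between libraries. Per length, Rela made up 43.3% ± 0.8 (SD, n = 3) of the reads of the 5 subunits in nondiabetic vehicle mice, Nfkb1 29.0% ± 0.8, Nfkb2 16.2% ± 1.0, Relb 10.4% ± 0.4 and Rel 1.12% ± 0.0066. In diabetic vehicle mice the share of Nfkb2 was 18.7%, 17.9% and 18.5%, above the 15.0% to 16.9% of nondiabetic vehicle mice and the 15.5% to 16.2% of diabetic ATG mice. The Nfkb1 share was 25.7% ± 1.0 in the diabetic vehicle mice and 28.4% ± 1.2 in the diabetic ATG mice, and each diabetic vehicle mouse was below each nondiabetic vehicle mouse and each diabetic ATG mouse. The nondiabetic ATG mice, at 25.2%, 25.6% and 29.0%, overlapped with them. Relb took 13.9%, 10.2% and 13.3% in diabetic vehicle mice, so mouse 2 lay within the 9.9% to 10.6% of the nondiabetic vehicle mice. The log2 difference between Nfkb2 and Rela within a library was -0.96 ± 0.11 in diabetic vehicle mice against -1.18 ± 0.12, -1.18 ± 0.09 and -1.23 ± 0.06 in the nondiabetic vehicle, nondiabetic ATG and diabetic ATG mice. Between Relb and Nfkb2 the 4 group means were between -1.18 and -1.12, with SDs of 0.04 to 0.21.

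**Figure D4:**
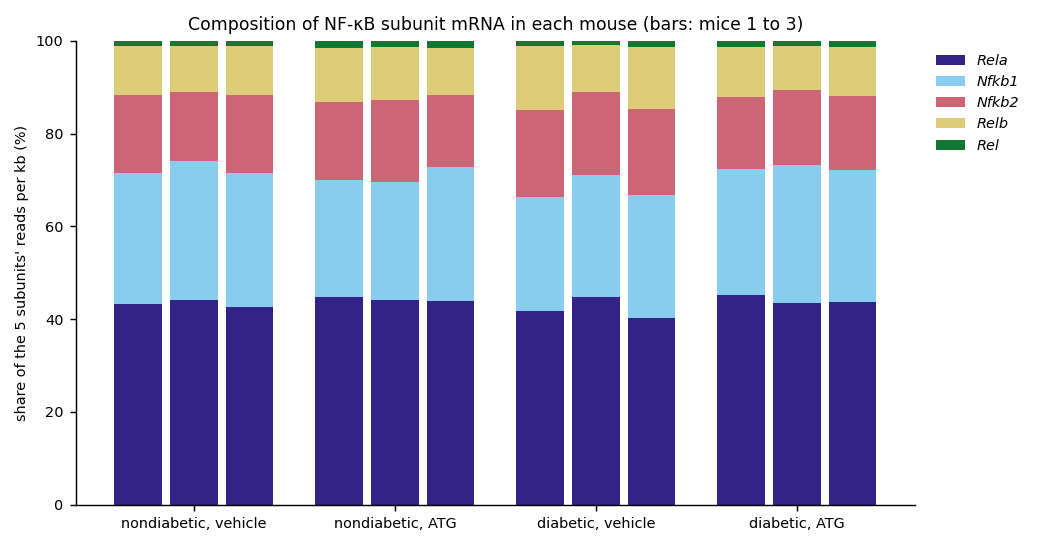
Share of each subunit gene in the reads per kb of the 5 subunits (y axis from 0 to 100%), one stacked bar per mouse, mice 1 to 3 from left to right in each group. Rela is the largest part in every mouse, at 40.2% to 45.2%, and the Nfkb2 segment is widest in the diabetic vehicle mice, at 17.9% to 18.7%.

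The inhibitors were dominated by Nfkbia, which held 80.6% ± 1.8 of their reads per kb in nondiabetic vehicle, 73.1% ± 6.9 in nondiabetic ATG, 81.6% ± 1.4 in diabetic vehicle and 85.4% ± 1.2 in diabetic ATG mice. Nfkbie stayed between 1.9% and 3.9% in every mouse. The ratio of the inhibitors' summed reads per kb to those of the 5 subunits was 1.38 ± 0.17, 1.25 ± 0.23, 1.42 ± 0.11 and 1.72 ± 0.21 in the same groups. The diabetic ATG mice ranged from 1.56 to 1.96 and lay above all 3 diabetic vehicle mice, while the nondiabetic vehicle mice reached 1.57.

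The genes whose log2 values ran most closely with Nfkb2 over the 12 mice were Stk17b (Pearson's r = 0.96), Ifngr2 (0.96), Alkbh6 (0.96), Cd244 (0.95) and Traf3 (0.95). Relb came at rank 14 of all genes (0.94) and Rela at rank 85 (0.91), while Rel was at 0.44 and Ikbkg at 0.01. For Rela the nearest were Nop56 (0.99), Zdhhc18 (0.98), Tbrg1 (0.98), Scarf1 (0.98) and Lgals3bp (0.98). Nfkb2 was at rank 761 for Rela and Nfkb1 at rank 822 (0.90). The mice fall into 4 groups and share their libraries' cell makeup, so these values describe likeness over the groups.

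Around the 10 genes, 144 other genes of the pathway were followed, of which 116 were listed. For diabetes in vehicle-treated mice 31 were called higher and 1 lower, with a median log2 difference of 0.15. That is 27.6% called and 26.7% called higher, where 18.9% and 10.2% of all genes were, with a median of 0.01. For ATG in diabetic mice limma called 0, with 16 at an unadjusted p under 0.05, beside 4.51% of all genes, limma-voom called 0, and the median was -0.06 beside -0.01 for all genes. The 16 are 13.8% of the 116. For ATG in nondiabetic mice 0 were called higher and 12 lower (median -0.14), or 10.3%, beside 5.22% of all genes with a median of -0.04. For diabetes in ATG-treated mice 48 were called higher and 7 lower (median 0.24). There, 47.4% were called and 41.4% called higher, where 46.7% and 25.9% of all genes were, with a median of 0.05. The counts in the lists below are of called genes and stand against these same shares of all genes, and nothing is read from them about the pathway. Without nondiabetic vehicle mouse 2, the count for diabetes in vehicle-treated mice fell from 32 to 6, and without vehicle mouse 1, vehicle mouse 3 or diabetic vehicle mouse 1 it was 17, 19 or 10. For ATG in nondiabetic mice, leaving out ATG mouse 3 raised the count from 12 to 30 and leaving out nondiabetic vehicle mouse 3 ended it at 0. Leaving out any one of the other mice, except diabetic vehicle mice 2 and 3, gave 1 to 7. For diabetes in ATG-treated mice, the count went from 55 to 36 without nondiabetic ATG mouse 1. With the tubule markers in the fit, the counts were 1, 0, 0 and 0 in the order of the comparisons above.

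Of the receptors and adaptors, 38 of 43 were listed, and 9 were higher and 1 lower with diabetes in vehicle-treated mice. Tnfrsf1a, the main TNF receptor, rose from 11.97 ± 0.03 to 12.30 ± 0.06 (SD, n = 3 each; limma adjusted p = 0.00936). Tnfrsf1b, the second TNF receptor, rose from 8.76 ± 0.03 to 9.27 ± 0.14 (limma adjusted p = 0.0127). Ube2v1, a partner in K63-linked ubiquitin chains, rose by 0.26 ± 0.06 (SE). Traf1, an adaptor of TNF receptors, fell from 8.27 ± 0.08 to 7.70 ± 0.07 (limma adjusted p = 0.0442). With ATG in nondiabetic mice, Tnfrsf1b fell to 8.08 ± 0.11, Tlr4, the receptor for bacterial lipopolysaccharide, from 10.51 ± 0.12 to 9.79 ± 0.40, and Tnfrsf1a to 11.70 ± 0.08 (limma adjusted p = 0.0103, 0.0336 and 0.0433). For diabetes in ATG-treated mice the same 3 receptor genes were higher by 0.93, 1.23 and 0.64 (limma adjusted p from 0.000132 to 0.000359), and 17 of the 38 genes in all were higher and 1, Traf1, lower.

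Of the 11 other kinases and noncanonical regulators, 3 were higher and 0 lower with diabetes in vehicle-treated mice. Traf3, which keeps NIK low by promoting its breakdown, rose from 10.14 ± 0.11 to 10.52 ± 0.05 (limma adjusted p = 0.00753). Map3k14, which encodes NIK, rose from 8.92 ± 0.22 to 9.37 ± 0.02 (limma adjusted p = 0.0157), and Sharpin, a subunit of the linear ubiquitin ligase, rose by 0.25 ± 0.06 (SE). Traf3 was the one gene of this list called with ATG in nondiabetic mice, lower by a log2 difference of -0.29 ± 0.07. Under ATG, diabetes gave 6 higher, among them Traf3 by 0.43 ± 0.07, Tbk1, an IKK-related kinase, by 0.49 ± 0.09 and Map3k14 by 0.41 ± 0.10, and 1 lower, Chuk, which encodes IKKα, by a log2 difference of -0.26 ± 0.09.

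In a broad list of 6 atypical IκB and related genes, Nfkbil1 was higher with diabetes in vehicle-treated mice by 0.32 ± 0.08, and Ankrd42 was lower with diabetes in ATG-treated mice by -0.36 ± 0.13 (limma adjusted p = 0.0486). Bcl3, Nfkbid and Nfkbiz of the same list were called in no comparison. Of the 21 listed negative regulators of 22, 2 were higher with diabetes in vehicle-treated mice, N4bp1 by 0.21 ± 0.06 and Tnip2, an A20-binding protein, by 0.24 ± 0.08. Tnip2 was also called lower with ATG in nondiabetic mice (-0.33 ± 0.08). Diabetes under ATG gave 7 higher, among them Tnip2 by 0.42 ± 0.08, N4bp1 by 0.23 ± 0.06 and Zc3h12a, an RNase that degrades inflammatory mRNAs, by 0.60 ± 0.15, and 1 lower, Commd1 (-0.34 ± 0.09).

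Of 62 known target genes, 40 were listed, and cytokine genes such as Ccl2, Ccl5, Il6 and Tnf were not among them. With diabetes in vehicle-treated mice, 16 were called higher and 0 lower, while 26 of the 40 had a positive and 14 a negative difference. Genes placed in another list, such as Traf1, were not counted here. Nos2, the inducible nitric oxide synthase, went from 8.58 ± 0.22 to 9.68 ± 0.10 (2.15-fold, limma adjusted p = 0.00207). Cx3cl1, the chemokine fractalkine, went from 12.10 ± 0.11 to 12.78 ± 0.09 (1.60-fold, limma adjusted p = 0.00279), and Ccnd1, cyclin D1, from 13.49 ± 0.04 to 14.04 ± 0.13 (1.47-fold, limma adjusted p = 0.00824). With ATG in diabetic mice 0 were called by limma and 7 (17.5%) had an unadjusted p under 0.05, beside 4.51% of all genes, and the median was -0.17 beside -0.01. With ATG in nondiabetic mice 7 were lower, among them Icosl, a costimulatory ligand (-0.49 ± 0.09), Csf1, the macrophage growth factor (-0.90 ± 0.19), and Nos2 (-0.61 ± 0.14). With diabetes in ATG-treated mice 18 were higher, led by Nos2 (1.57 ± 0.14), Birc3 (0.85 ± 0.11) and Icosl (0.65 ± 0.09), and 3 were lower. The 3 were Cfb, complement factor B (-1.05 ± 0.21), Sod2, mitochondrial superoxide dismutase (-0.75 ± 0.15), and Stat5a (-0.41 ± 0.09).

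**Figure D5:**
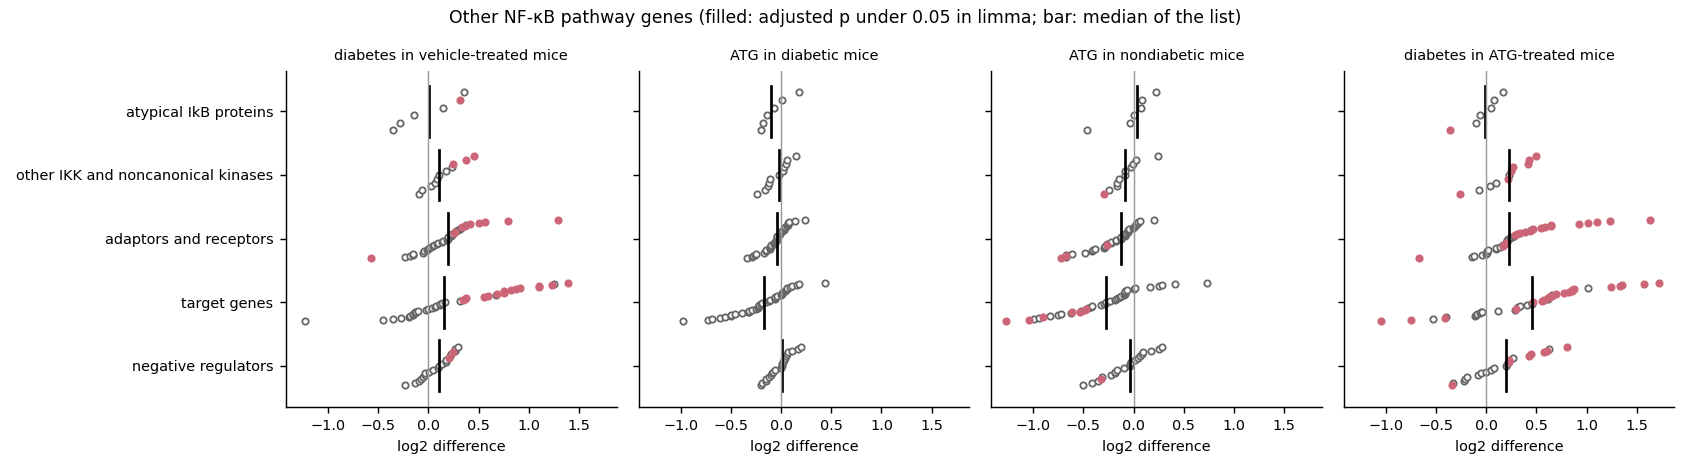
Log2 differences (x axis) of the 116 listed other genes of the pathway in 4 comparisons, one point per gene, by list on the y axis and sorted within each list. Filled points were called at an adjusted p under 0.05 in limma, and the bar is the median of the list. In the diabetes comparisons most filled points lie right of 0, and for ATG in diabetic mice no point is filled.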

How the data were processed

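One table per mouse was deposited, with a log2 value, the length and the position of each gene on mm10 (GRCm38). The deposited log2 values appear to be read numbers that the authors scaled, with a single factor for each library, to similar totals (linear sums 29.7 to 30.2 M, mega), without division by length. This was checked on the values: once a library's factor was removed, 83.4% to 83.9% of linear values below 2000 were whole reads to within 0.02. The other values were not whole, for a reason the sources used here do not give, and were rounded where reads are used. RNA was poly-A selected. The labels' processing notes name limma and mm10 without a role. The aligner, counter, strand setting and the filter behind the list of genes are not given in the sources used here. The lowest of the genes' highest linear values was 100. The label protocol also describes digestion and cell sorting, which the study's methods do not mention, and the libraries were treated as whole glomeruli.

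Groups came from the labels. limma 3.58.1 (R 4.3.3) with a mean-variance trend was fitted to the log2 values of all 12 mice and 14096 genes, with Benjamini-Hochberg adjustment over all genes, and was tested on simulated data. The differences and SEs come from this fit and the means and SDs from the mice. Reads per kb are recovered reads (the library factor removed) divided by the deposited length, and serve to compare genes within a library. The 10 genes, the pathway lists and the marker lists (podocyte, endothelial, mesangial and smooth muscle, tubule, leukocyte and erythrocyte) were chosen with earlier results of these data known. All 10 genes are named. Of each pathway list, those called in a comparison with the lowest p are named, at most 3 higher and 3 lower, and of the nearest genes 5 each for Nfkb2 and Rela. The promoter windows were searched on both strands.

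The alternatives, given at the end, were another scaling, a minimum of 10 reads in every mouse, a pseudocount of 1, limma-voom, no trend, only the compared groups, a replicate block, each mouse or the 2 unnumbered nondiabetic mice left out, and the tubule or leukocyte marker mean as a covariate. Gene models of GENCODE overlap for Nfkb1 (Gm43430, same strand), Nfkb2 (Psd, opposite strand, by 4 bases) and Ikbkb (Gm15346, antisense, by 9382 bases), so reads there may be shared. Figures were drawn with matplotlib 3.10.9.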

Additional observations from a re-analysis of the deposited data

How the results depend on the processing

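Members here are the 10 genes. With the mean of the tubule markers in the fit, members called went from 4 to 0 for diabetes in vehicle-treated mice, from 1 to 0 for ATG in nondiabetic mice and from 6 to 0 for diabetes in ATG-treated mice, and pathway genes from 32 to 1, 12 to 0 and 55 to 0. In that fit, Chuk (0.10), Commd1 (0.018) and Cfb (0.038) turned positive for diabetes in ATG-treated mice. Of the members, Rel and Ikbkb turned negative for diabetes with vehicle (-0.15 and -0.20), Rel and Relb with ATG (-0.56 and -0.05), and Nfkbib turned positive there (0.07), as did Rel for ATG in diabetic mice (0.09). Ikbkg turned positive for ATG in diabetic mice (from -0.008 to 0.03) and in nondiabetic mice (from -0.005 to 0.08). Tubule markers and diabetes moved together in these mice, so their parts cannot be told apart. With the leukocyte marker mean, members called were 1 for diabetes with vehicle, 0 for ATG in nondiabetic mice and 6 for diabetes with ATG, and pathway genes 2, 2 and 41. Nfkb1, no longer called for ATG in nondiabetic mice, was at -0.39 ± 0.09 with this covariate and -0.36 ± 0.08 without it. Over all genes, calls for diabetes with vehicle went from 2659 to 264 with the tubule and 420 with the leukocyte covariate. For diabetes with ATG they went from 6585 to 73 and 5579, and for ATG in nondiabetic mice from 736 to 37 and 262.

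The mice are all different animals. Deviations of same-numbered diabetic mice correlated at 0.31, 0.05 and 0.34, and those of the other same-numbered mice at -0.59 to 0.25. Differently numbered mice were not compared, so whether a title number stands for a shared step was not tested. With the replicate block, the members called did not change in any comparison. Pathway genes called were 17 for diabetes with vehicle and 36 with ATG, and all genes called for diabetes with vehicle were 1375, and for the difference between ATG effects 8 in place of 77. Without the 2 unnumbered nondiabetic mice, ATG in nondiabetic mice gave 0 members and 0 pathway genes, and diabetes with ATG 33 pathway genes. With only the compared groups, ATG in nondiabetic mice gave 0 and 0. For the same comparison, pathway genes called were 5 with median-ratio scaling and 7 without the trend.

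With each mouse left out in turn, members called ranged from 2 to 6 for diabetes with vehicle, 0 to 5 for ATG in nondiabetic mice, 6 to 7 for diabetes with ATG and 0 to 3 for the difference between ATG effects, and stayed at 0 for ATG in diabetic mice. Pathway genes ranged from 6 to 37, 0 to 30 and 36 to 60 in the first 3, and stayed at 0 for ATG in diabetic mice. The 36 arose without nondiabetic ATG mouse 1. The other alternatives (10-read minimum, pseudocount, limma-voom) left all these counts within 1.5 times the reported ones. Read numbers were lowest for Rel, with 54 to 101, and Nfkbie, with 108 to 313, and each group holds only 3 mice.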
